A study of Mus musculus with 8 samples.

Results

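The genes described here encode the proteins of the cytosolic ribosome. They were taken as every gene symbol present in both count tables that consists of Rpl or Rps, a number and at most a final a or x, together with Rplp0, Rplp1, Rplp2 and Rpsa. This gave 76 of the 24421 genes, of which 30 belong to the small (40S) subunit and 46 to the large (60S) subunit. RNA selected on polyA beads was sequenced from 8 libraries of mouse embryonic stem cells that had been kept in 2i/LIF, a medium for naive cells, over 3 to 4 passages, in 4 groups of 2 libraries. Ubc9-depleted cells (v6.5 line), treated with doxycycline (DOX) for 72 hours, were compared with Ubc9 WT cells of the same line, here called Ubc9 controls. Ubc9 is the enzyme that conjugates the small protein SUMO to other proteins. H1 TKO cells, in which the linker histone genes Hist1h1c, Hist1h1d and Hist1h1e are knocked out, were compared with H1 WT cells, here called H1 controls. All lines of the H1 comparison were taken from earlier published work. The labels state neither whether DOX was given to the Ubc9 controls nor whether both libraries of a group are separate cultures, so that p-values below measure the spread between libraries, which may be technical.

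A cytosolic ribosome holds a single copy of nearly every ribosomal protein, and unassembled subunits are degraded, so that cells make these proteins in matched amounts. In mammals the mRNAs begin with a tract of pyrimidines, the 5′ terminal oligopyrimidine (TOP) motif, through which mTOR and the RNA-binding protein Larp1 control their translation together. Transcripts of ribosomal protein genes are among the most abundant in growing cells, and the genome carries many processed pseudogenes copied from them. Loss of 1 copy of several of these genes in humans causes Diamond-Blackfan anaemia, a failure of red cell production.

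The shared start of these genes is shown because the family is read here as a group. RefSeq promoter entries (GRCm38.p6) were found for 56 of the 76 genes, with 66 windows in all. Each line below runs from 50 bases before the annotated start to 30 bases after it, on the transcribed strand. Capitals mark CTTTC or CTTCC within the stretch from 10 bases before to 30 bases after the start, and CCGGAAG or AAGATGG on either strand anywhere in the window.
Rpl10a, chr17:28328515-28328594, plus strand: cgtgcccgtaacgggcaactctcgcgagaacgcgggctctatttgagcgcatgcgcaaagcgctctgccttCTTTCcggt
Rpl15, chr14:18270957-18271036, minus strand: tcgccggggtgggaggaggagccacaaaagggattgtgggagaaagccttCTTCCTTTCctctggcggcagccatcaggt
Rpl28, chr7:4792915-4792994, plus strand: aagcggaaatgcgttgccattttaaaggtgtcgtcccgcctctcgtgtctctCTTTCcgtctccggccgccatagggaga
Rpl35a, chr16:33056432-33056511, plus strand: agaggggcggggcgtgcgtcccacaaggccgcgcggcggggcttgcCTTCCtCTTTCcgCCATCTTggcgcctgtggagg
Rplp2, chr7:141447601-141447680, plus strand: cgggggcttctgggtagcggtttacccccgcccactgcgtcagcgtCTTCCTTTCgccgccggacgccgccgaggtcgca
Rps10, chr17:27635215-27635294, minus strand: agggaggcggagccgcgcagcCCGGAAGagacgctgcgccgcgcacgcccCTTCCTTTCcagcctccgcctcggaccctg

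These 6 genes were picked as examples that hold the pyrimidine run, which lies around the annotated start and in Rpl10a farther downstream. Over all windows, CTTTC or CTTTT or CTTCC occurred on the transcribed strand from 10 bases before to 30 bases after the start in 48.5% of the ribosomal protein windows, representing 30 genes, against 15.6% of 32851 windows of the same length. CCGGAAG, the core of the site of Ets-family factors, was found on either strand within the full 300 bases in 36.4% of the ribosomal protein windows and 8.86% of all windows. Its reverse complement begins with CTTCC, so that the same letters can count for both. The core of the YY1 site, AAGATGG, occurred in 16.7% and 6.34%, and TATAAA, the TATA box, in 9.09% and 13.6%. A match is a description of the letters only. The 76 genes lie on 19 chromosomes, with at most 14 on a single one, chromosome 7.

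The libraries held between 44441713 and 102780141 counts, at which 3 counts correspond to between 0.0292 and 0.0675 CPM. CPM values are read counts relative to the size of the library, here scaled by edgeR's TMM factors. Hist1h1c, Hist1h1d and Hist1h1e had 0 counts in both H1 TKO libraries, against 100 to 231 counts in each H1 control library. Ubc9-depleted library 1 had counts on 23462 genes, while its 3 companions had counts on 18584 to 19591, and the H1 control libraries differed from each other in the genes described here, as set out below. All 8 embryonic stem cell markers examined were tested in both comparisons, with a summed level of 5031 to 5062 CPM in Ubc9-depleted cells against 5286 to 5540.4 CPM in Ubc9 controls, and of 10410.3 to 10557 CPM in H1 TKO cells against 5434 to 5786 CPM in H1 controls. In the H1 comparison Tfcp2l1 made up most of that difference, with 5416 and 4914 CPM in H1 TKO cells against 1778 and 1611 CPM in H1 controls. It was the 1 of the 8 called, where 8.59% of all genes were called higher. Over these markers log2 fold changes had a median of 0.30. Both TKO libraries were above both controls for 5 of the 8, against 31.4% of all genes. They were below both controls for 2, against 30.6%. The 8 fibroblast markers summed to 34.8 to 36.7 CPM in Ubc9-depleted cells against 17.8 to 17.97 CPM in Ubc9 controls. Of the 8, 5 were called higher, where 21.1% of all genes were. Both depleted libraries were above both controls for 7 of them and below both for 1, against 36.7% and 32.2% of all genes. In the H1 comparison they summed to 7.78 to 8.10 CPM in H1 TKO cells against 12.8 to 21.7 CPM in H1 controls. Postn had no count in any library of that comparison. Only 3 of the 8 had enough counts for the H1 test. Of these Pdgfrb fell (2.72 and 2.33 CPM in H1 TKO cells against 8.14 and 12.9 CPM in H1 controls), and Col1a1 and Thy1 did not pass, with log2 fold changes of -0.96 and 1.78. Their part in the results below was not tested.

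The count tables spread the ribosomal protein genes over a wide range, in a different order in each table. Per kilobase of transcript, the highest mean levels in the Ubc9 table were 2629 CPM per kb for Rplp1, a protein of the ribosomal stalk that recruits elongation factors, 2421 for Rpl4, 1856 for Rpl23a, which sits at the exit of the nascent chain, and 1359.9 for Rpl17. In the H1 table Rpl41, the smallest ribosomal protein, with 12822 CPM per kb, Rpl32 with 8992 and Rps28 with 6354 were among the highest. Over the 72 genes above 10 CPM in all libraries, the levels per kilobase in both tables had a Spearman correlation of 0.26, with kit and cells differing between the tables. At the low end Rpl26, Rps27, Rpl34 and Rpl30 stayed under 10 CPM in all 8 libraries. Rpl26 had 0.0228 to 0.466 CPM and Rps27 0.804 to 2.47 CPM over all 8 libraries.

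Sequence shared with other genes was common in this family. A window of 50 bases was counted as a gene's own where it occurs in no other gene's GENCODE M21 transcript. The median gene had 43.9% of its windows to itself, and 46 of the 76 had under 50% of them. Rps27 had 1.35%, and shared 98.6% with Rps27rt, whose own row was at 0 in all libraries. Low counts of such genes are therefore uncertain as levels, since the rule by which reads matching several places were counted is not given in the sources used here. Transcripts of these genes run from 345 to 5130 bases with a median of 767.5, and those of Rps15a and Rps20, the longest chosen, lower their values per kilobase.

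In Ubc9-depleted cells the ribosomal protein genes lay close to controls, with a median log2 fold change of 0.08 over the 75 genes tested (quartiles -0.05 and 0.16), against 0.06 over all 16499 genes tested. Rpl10a and Rpl36 of the large subunit and Rps19 of the small subunit rose, and Rps14 of the small subunit fell. Thus 3 of 75 were called higher, where 21.1% of all genes were, and 1 was called lower, where 15% were (edgeR's quasi-likelihood F test, Benjamini-Hochberg adjusted p under 0.05). In bulk RNA such as this, fewer cells of a type and less RNA per cell cannot be told apart. Groups did not overlap for 14 genes that were higher and 2 that were lower, against 36.7% and 32.2% of all genes. Rpl26 had too few counts for the test. The family's share of calls was below that of all genes in both directions.

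Rpl10a, the protein of the L1 stalk (ENSMUSG00000037805, chr17:28328471-28331033), was at 113 and 153 CPM in Ubc9-depleted libraries 1 and 2, against 112 and 90.5 CPM in Ubc9 controls 1 and 2. The groups did not overlap, but Ubc9-depleted library 1 lay close to Ubc9 control 1. The log2 fold change was 0.40 ± 0.14 (SE; adjusted p = 0.026, edgeR). Rpl36, a large-subunit protein (ENSMUSG00000057863, chr17:56613416-56614243), had 121 and 132 CPM in Ubc9-depleted cells, against 111 and 89.2 CPM in Ubc9 controls. Its groups were also apart, and the log2 fold change was 0.34 ± 0.13 (adjusted p = 0.038, edgeR). Both calls were lost without Ubc9-depleted library 2, where the log2 fold change of Rpl10a was 0.08 and that of Rpl36 0.19, and without Ubc9 control 1 (adjusted p = 0.16 for Rpl10a and 0.22 for Rpl36, edgeR) or Ubc9 control 2 (0.70 and 0.77). Rpl36 also did not pass with RLE factors (adjusted p = 0.093, edgeR) or without the filter on low counts (0.098).

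The other 2 calls, described after their values were seen since their groups overlapped, each turned on single libraries. Rps19, a 40S maturation protein and the gene most often mutated in Diamond-Blackfan anaemia (ENSMUSG00000040952, chr7:24884371-24889806), had 88.6 and 139.9 CPM in Ubc9-depleted cells, against 96.0 and 75.5 CPM in Ubc9 controls. Only Ubc9-depleted library 2 was above both controls, and the log2 fold change of 0.41 ± 0.15 (adjusted p = 0.035, edgeR) was -0.032 without it. The call of Rps19 was also lost without Ubc9 control 1 (adjusted p = 0.097, edgeR) or Ubc9 control 2 (0.69). Rps14, a protein of the platform of the small subunit (ENSMUSG00000024608, chr18:60747098-60778546), had 222 and 175 CPM in Ubc9-depleted cells, against 201 and 398 CPM in Ubc9 controls. Ubc9 control 2 stood above the other 3 libraries, and Ubc9 control 1 between the depleted ones. The log2 fold change was -0.59 ± 0.19 (adjusted p = 0.013, edgeR), and the adjusted p was 0.93 without Ubc9 control 2 and 0.24 with library totals as the scaling.

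Scaling and single libraries moved these counts. With DESeq2, which fits its own size factors, 0 genes of the family were called in either direction, where 11.7% of all genes were higher and 9.80% lower. A fit of all 8 libraries also called 0, where 6.48% and 2.85% of all genes were. At an unadjusted p under 0.05 the edgeR test had 6 of the family, of which 5 were higher. It had 7540 of all 16499 genes, of which 4311 were higher. With library totals as the scaling, the median over all genes was 0.25 in place of 0.06, that of the family was 0.26, and 37 of the 75 were called higher and 0 lower, where 24.1% and 6.57% of all genes were. Without Ubc9-depleted library 1 the calls were 21 higher and 6 lower, where 19.0% of all genes were higher and 15.3% lower. Without Ubc9-depleted library 2 they were 1 and 10, where 41.8% of all genes were higher and 22.9% lower. They were 0 and 1 without Ubc9 control 1, where 6.43% and 4.45% of all genes were called, and 0 and 0 without Ubc9 control 2, where 6.09% and 3.93% were.

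**Figure D1:**
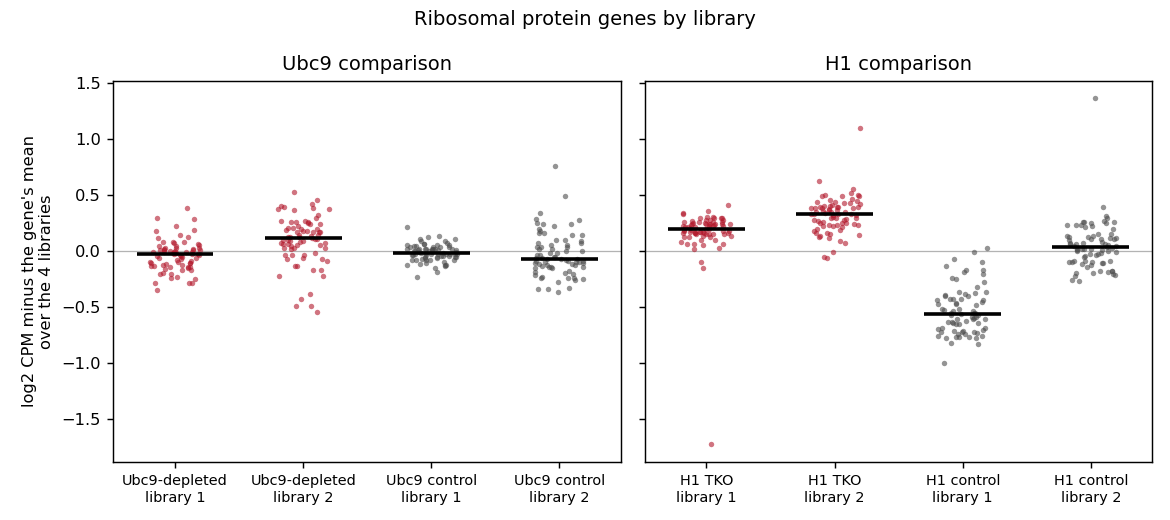
Each point is 1 ribosomal protein gene, plotted as its log2 CPM (prior count 2) minus its mean over the 4 libraries of its comparison, for each library on the x axis; black bars are medians over the 75 genes tested in the Ubc9 comparison and the 76 in the H1 comparison. Medians in the Ubc9 comparison run from -0.07 to 0.12, while H1 control library 1 has a median of -0.56, below the 0.20 and 0.33 of the H1 TKO libraries and the 0.03 of H1 control library 2.

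The share of all counts that fell on the family was 3.49% and 3.50% in Ubc9-depleted cells, against 3.00% and 2.93% in Ubc9 controls. The groups did not overlap, with means of 3.49% ± 0.0031 and 2.97% ± 0.051 (SD, n = 2 each) and a difference of 0.53 percentage points (exact two-sided permutation p = 0.333, the smallest that 2 against 2 libraries allows). A share is taken of all counts and so, unlike the fold changes above, carries no TMM factor. Of the counts on the family, 33.5% and 33.4% lay on 40S genes in Ubc9-depleted cells, against 32.8% in each Ubc9 control.

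By subunit, the 30 small-subunit genes had a median log2 fold change of 0.10 in Ubc9-depleted cells, with 1 called higher and 1 lower, and the 45 large-subunit genes tested had a median of 0.07, with 2 called higher. Rpsa, the ribosomal protein also known as the laminin receptor, had 801 and 707 CPM in Ubc9-depleted cells, against 708 and 693 CPM in Ubc9 controls, and the groups overlapped. The stalk protein Rplp0 had 474 and 529 CPM in Ubc9-depleted cells against 508 and 439.9 CPM in Ubc9 controls, and its partner Rplp2 had 756 and 1056 CPM in Ubc9-depleted cells against 962 and 957 CPM in Ubc9 controls. Rplp1 had 1197 and 1417 CPM in Ubc9-depleted cells, against 1191 and 1443 CPM in Ubc9 controls. For these stalk genes the spread within a group was wider than the difference between the groups. Rpl5 and Rpl11, which with 5S rRNA bind and inhibit the p53 ligase Mdm2 when free of the ribosome, had log2 fold changes of 0.14 ± 0.14 (adjusted p = 0.45) and -0.02 ± 0.12 (adjusted p = 0.92, edgeR).

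In H1 TKO cells most genes of the family lay above H1 controls, and 1 passed the test. The median log2 fold change over 76 genes was 0.48 (quartiles 0.35 and 0.59), against -0.02 over all 14800 genes tested, and 72 of the 76 were above 0. Rpl21, a large-subunit protein, rose and was the 1 of 76 called higher, where 8.59% of all genes were. By edgeR 0 were called lower, where 8.43% of all genes were, with 0 lower at an unadjusted p under 0.05 and 0 by DESeq2. Both H1 TKO libraries were above both H1 controls for 61 of the 76 genes, against 31.4% of all genes, and for 0 were both below, against 30.6%. The 22 genes with an unadjusted p under 0.05 (edgeR) were all higher in H1 TKO cells. Of all 14800 genes, 4770 had such a p, and 2349 of these were higher.

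Rpl21 (ENSMUSG00000041453, chr5:146832890-146837032) was at 359 and 409 CPM in H1 TKO cells, against 195 and 252 CPM in H1 controls. Both TKO libraries were above both controls, by a log2 fold change of 0.78 ± 0.21 (adjusted p = 0.042, edgeR). Rpl17, close to the exit of the nascent chain, had the same log2 fold change with a wider spread, with 1933 and 2692 CPM in H1 TKO cells against 1189 and 1502 CPM in H1 controls (adjusted p = 0.064, edgeR). The log2 fold changes of all 30 small-subunit genes lay between 0.31 and 0.70, with a median of 0.51, and those of the 46 large-subunit genes between -0.36 and 0.78, with a median of 0.47. None of the small-subunit genes passed. Groups were apart and higher for 24 of the 30 and for 37 of the 46, against 31.4% of all genes. Of the counts on the family, 45.0% and 44.9% lay on 40S genes in H1 TKO cells, against 43.6% and 44.5% in H1 controls.

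The H1 controls differed from each other across the family. H1 control 1 was the lowest of the 4 libraries for 68 of the 76 genes, and below both TKO libraries for 74. H1 control 2 was below both TKO libraries for 62, above both for 6 and between them for 8. Rplp2 shows the pattern at its widest among abundant genes, with 1895 and 1962 CPM in H1 TKO cells, against 741 and 1756 CPM in H1 controls 1 and 2. Rplp0 had 4505 and 4753 CPM in H1 TKO cells against 2349 and 4087 CPM in H1 controls, and Rplp1 had 2614 and 2619 CPM in H1 TKO cells against 1274 and 2502 CPM in H1 controls. Rpsa had 2289.8 and 2496 CPM in H1 TKO cells, against 1238 and 2425 CPM in H1 controls, so that its groups overlapped. In each of these 4 genes H1 control 1 was the lowest library and H1 control 2 was nearer to the TKO libraries.

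Rpl5 did not share this difference between controls. It had 365 and 457 CPM in H1 TKO cells, against 307 and 292 CPM in H1 controls, a log2 fold change of 0.45 ± 0.20 (adjusted p = 0.16, edgeR) with both controls alike. Rpl11, its partner in the 5S particle, did share it and had 1471 and 1727 CPM in H1 TKO cells, against 821 and 1297 CPM in H1 controls. Rpl13, with 837 and 889 CPM in H1 TKO cells against 824 and 1221 CPM in H1 controls, and Rpl26 and Rpl30 were among the genes with a log2 fold change below 0. They were named after their values were seen, and none of them passed.

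Leaving out a library changed the number of calls more than the scalings tried did. Without H1 control 2, so that H1 control 1 stood alone, 68 genes were called higher and 0 lower, where 25.8% of all genes were called higher; without H1 control 1 they were 39 higher and 1 lower, where 23.4% of all genes were called higher. Without H1 TKO library 1 or 2 no gene of the family was called, where 4.12% and 4.03% of all genes were called higher. The median log2 fold change stayed above 0 in each case, between 0.27 without H1 control 1 and 0.82 without H1 control 2. Under the scalings tried it stayed between 0.42 with library totals and 0.49. The call of Rpl21 was lost without either TKO library (adjusted p = 0.33 and 0.55, edgeR), which leaves the spread to be estimated from the H1 control pair alone. DESeq2 called 9 of the 76 higher, where it called 8.91% of all genes higher.

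The share of all counts on the family was 12.4% and 13.2% in H1 TKO cells, against 8.44% and 11.1% in H1 controls. Means were 12.8% ± 0.55 and 9.79% ± 1.9 (SD, n = 2 each), a difference of 3.04 percentage points with groups apart (exact two-sided permutation p = 0.333, the smallest possible here). Without H1 control 1 the difference was 1.69 percentage points, and without H1 control 2 it was 4.40.

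**Figure D2:**
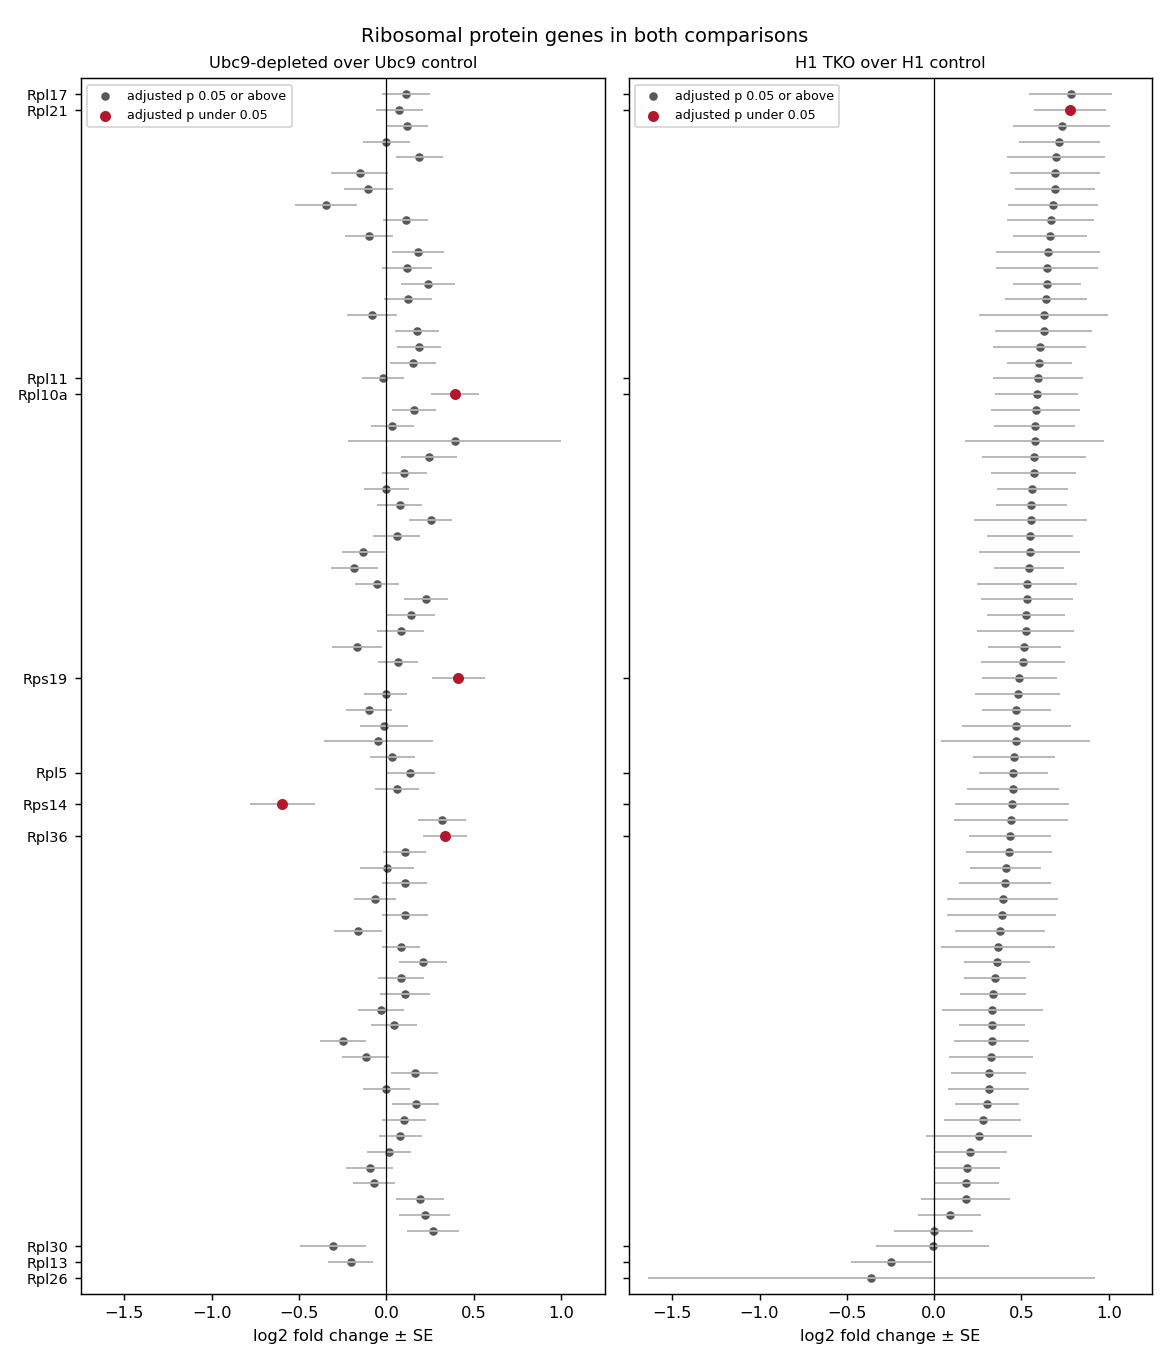
Points are log2 fold changes of the ribosomal protein genes with standard errors as bars, in Ubc9-depleted over Ubc9 control cells on the left and H1 TKO over H1 control cells on the right, with genes ordered by the H1 value and only some of them labelled; Rpl26 was not tested on the left. Red points have an adjusted p under 0.05, which are Rpl10a, Rpl36, Rps19 and Rps14 on the left and Rpl21 on the right, and 72 of the 76 points on the right lie above 0.

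The difference between both effects was tested in a fit of all 8 libraries. Taken as the Ubc9 effect minus the H1 effect, it had a median of -0.45 over the 76 genes, against 0.10 over all 16974 genes tested, and 72 of the 76 were below 0. With edgeR 0 were called higher, where 8.08% of all genes were, and 0 lower, where 6.43% were. An unadjusted p under 0.05 was found for 12 of the family, all lower. Of all 16974 genes, 5079 had such a p, and 2920 of these were higher. The smallest adjusted p-values belonged to Rpl23a (difference -0.79 ± 0.27, adjusted p = 0.078), Rpl10 (-0.75 ± 0.26, adjusted p = 0.080), Rpl21 (-0.73 ± 0.26, adjusted p = 0.093) and Rpl13a (-0.82 ± 0.30, adjusted p = 0.093). Rpl10, which joins the large subunit late, in the cytoplasm, had 231 and 192 CPM in Ubc9-depleted cells against 217 and 265 CPM in Ubc9 controls, and 2410.5 and 2806 CPM in H1 TKO cells against 1633 and 1948 CPM in H1 controls. Rpl23a had 1089 and 916 CPM in Ubc9-depleted cells against 980.5 and 1171 CPM in Ubc9 controls, and 1162 and 1447 CPM in H1 TKO cells against 736 and 911 CPM in H1 controls. Both genes overlapped between groups in the Ubc9 comparison and not in the H1 comparison. DESeq2 called 11 of the family lower in this contrast, where it called 7.08% of all genes lower. Leaving out H1 control 2 gave 53 lower, where 14.4% of all genes were, leaving out H1 control 1 gave 9, where 13.6% were, and leaving out Ubc9 control 1 gave 3, where 3.88% were. Kit and cell line differed along with the treatment, so that their part in this difference cannot be told apart.

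Within each group, library 1 was set against library 2 as a log2 ratio. The median over the family was -0.17 with an SD of 0.33 in Ubc9-depleted cells and 0.05 with an SD of 0.25 in Ubc9 controls. The 3434 genes of like level (from 60.6 to 976 CPM) had SDs of 0.13 in each. Their medians were -0.15 in Ubc9-depleted cells, near that of the family, and -0.04 in Ubc9 controls. In H1 TKO cells the median was -0.13 with an SD of 0.34, and in H1 controls it was -0.58 with an SD of 0.36, with 69 of 76 genes below 0 and 48 beyond 0.5 in size. The 594 genes of like level in the H1 table had SDs of 0.11 in H1 TKO cells and 0.46 in H1 controls, and their medians were -0.03 and -0.15. Rpl26, with 1 and 25 counts in the H1 TKO libraries, set the SD there. Without it, a restriction chosen after the values were seen, the SD in H1 TKO cells was 0.13 over 75 genes, whose ratios ran from -0.48 to 0.26, and in H1 controls it was 0.32. The SD over the family was thus above that of genes of like level in Ubc9-depleted, Ubc9 control and H1 TKO cells. In H1 TKO cells it was close to it once Rpl26 was left out. In H1 controls, where the family's median ratio was the farthest from 0, it was below that of genes of like level.

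Particular genes stood out within the groups. Rps13, a small-subunit protein, was at 134 and 77.7 CPM in Ubc9-depleted libraries 1 and 2, against 103 and 132 CPM in Ubc9 controls 1 and 2, which are log2 ratios of 0.79 and -0.36. Rps21, also of the small subunit, was at 219.9 and 133 CPM in Ubc9-depleted cells, against 177 and 272 CPM in Ubc9 controls, with log2 ratios of 0.73 and -0.62. Rps14, given above, had 0.34 and -0.99. In each of these genes the libraries of a group differed in opposite directions in the depleted and the control pair. Rpl34, with 3.64 and 1.96 CPM in Ubc9-depleted cells against 2.82 and 2.98 CPM in Ubc9 controls, had few counts. Rpl26, with 0.0228 and 0.381 CPM in H1 TKO cells against 0.0821 and 0.466 CPM in H1 controls, set both extremes of the H1 comparison, and of the abundant genes Rpl17 (log2 ratio -0.48) in H1 TKO cells and Rplp2 (-1.25) in H1 controls were the next.

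In the Ubc9 comparison such opposite ratios were seen in most of the family. Across the 75 genes the log2 ratio in Ubc9-depleted cells and that in Ubc9 controls had a Pearson correlation of -0.53, with opposite signs in 53, and of -0.56 over the 72 genes above 10 CPM. Genes of like level had -0.20 and all genes tested 0.017. In the H1 comparison the correlation was 0.49 with Rpl26 and its low counts included, and 0.12 over the 72 abundant genes, while the 594 genes of like level had 0.49 and all genes tested 0.056. These are correlations across genes of the same libraries, and genes are not independent replicates. Library numbers carry no order between groups, so that the sign of such a correlation depends on the numbering.

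**Figure D3:**
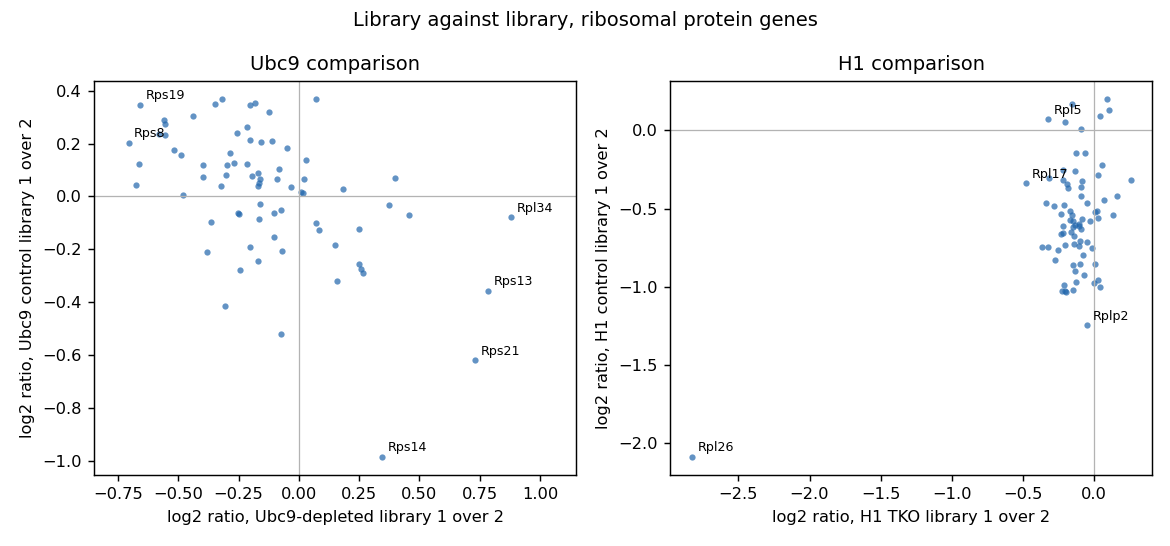
Each point is a ribosomal protein gene, with the log2 ratio of library 1 over library 2 in the Ubc9-depleted or H1 TKO group on the x axis and the same ratio in the control group on the y axis. In the Ubc9 panel the points fall from upper left to lower right (r = -0.53, 75 genes), with Rps14, Rps13 and Rps21 at the lower right; in the H1 panel nearly all points lie below 0 on the y axis, at a median of -0.58.

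Over the 72 abundant genes the Spearman correlation of fold change with transcript length was 0.16 for Ubc9 depletion and 0.00095 for H1 loss. With the percent of windows found in no other gene it was -0.08 for Ubc9 depletion and -0.22 for H1 loss, and with mean level -0.02 for each.

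**Figure D4:**
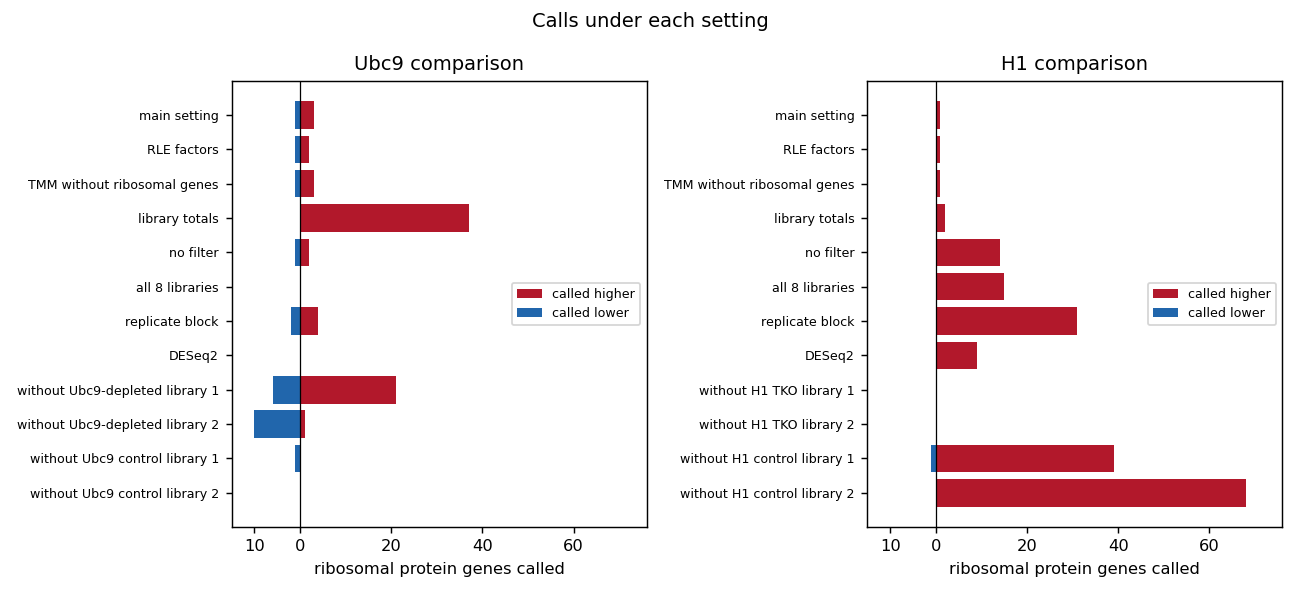
Bars give the number of ribosomal protein genes called higher (right of 0) and lower (left of 0) at an adjusted p under 0.05 under each setting, from the main setting through scalings and tests to leaving out 1 library. In the Ubc9 comparison the number called higher runs from 0 to 37, and in the H1 comparison from 0 to 68, where H1 control library 2 was left out.

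Some ribosomal proteins fall outside the symbol rule. Fau, Rps3a1 and Gnb2l1, the older symbol of Rack1, are among the 4 tested on this list. The list had 0 called in either comparison, with a median of 0.08 in Ubc9-depleted cells and 0.60 in H1 TKO cells. Of all genes, 21.1% were called higher and 15% lower in Ubc9-depleted cells. In H1 TKO cells 8.59% were called higher and 8.43% lower. After H1 loss 3 of 4 had groups apart and higher, against 31.4% of all genes. Gnb2l1 had 10471 and 11676 CPM in H1 TKO cells, against 5424 and 8667 CPM in H1 controls. The Diamond-Blackfan anaemia genes, all of them in the family, had 1 of 18 called higher in Ubc9-depleted cells, which was Rps19. This was below the 21.1% of all genes. In H1 TKO cells 0 of 19 were called, against the same 8.59% and 8.43%. Their medians were 0.08 in Ubc9-depleted cells and 0.45 in H1 TKO cells. Of the 5 genes of the 5S particle and the p53 branch, Rpf2, an assembly factor of that particle, fell in Ubc9-depleted cells with 79.2 and 81.8 CPM against 104 and 104 CPM in Ubc9 controls (log2 fold change -0.37 ± 0.12, adjusted p = 0.014, edgeR), a call lost when either Ubc9 control was left out. After H1 loss 0 of these 5 were called, against the same 8.59% and 8.43% of all genes.

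Rpl39l, a copy of Rpl39 known for its expression in the mouse testis, rose in both comparisons. It was higher in Ubc9-depleted cells, at 65.9 and 63.8 CPM against 28.6 and 26.6 CPM in Ubc9 controls, a log2 fold change of 1.23 ± 0.11 (adjusted p = 6.27e-10, edgeR). In H1 TKO cells it was higher too, at 121 and 136 CPM against 15.3 and 15.8 CPM in H1 controls, a log2 fold change of 3.04 ± 0.21 (adjusted p = 0.00049, edgeR). Libraries within each group were close together and the groups far apart. The call held under every setting tried in both comparisons. Rpl39 itself was at 37.7 and 59.6 CPM in Ubc9-depleted cells against 46.7 and 42.9 CPM in Ubc9 controls, and at 151 and 183 CPM in H1 TKO cells against 76.8 and 136 CPM in H1 controls, and passed in neither. The other 7 paralogs on the list passed in neither comparison.

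Factors that assemble ribosomes were read from a separate list. In Ubc9-depleted cells 11 of 29 ribosome biogenesis factors fell and 0 rose, with a median log2 fold change of -0.28, where 15% of all genes fell and 21.1% rose. In 26 of 29 both depleted libraries were below both controls, against 32.2% of all genes. Nolc1, a nucleolar chaperone of small nucleolar ribonucleoproteins, had 326 and 390.0 CPM in Ubc9-depleted cells against 514 and 475 CPM in Ubc9 controls (log2 fold change -0.47). Nop56, a core protein of the box C/D particles that methylate rRNA, had 188 and 219.5 CPM in Ubc9-depleted cells against 280.5 and 272 CPM in Ubc9 controls (-0.44), and Tsr1, a factor of small-subunit maturation, 102 and 114 CPM in Ubc9-depleted cells against 143 and 150.1 CPM in Ubc9 controls (-0.44). With library totals 3 of the 29 were called lower, at a median of -0.09, where 6.57% of all genes were. With all 8 libraries in 1 fit 0 were called, where 2.85% of all genes were called lower. Calls also changed with the library left out. Medians were then -0.31 without Ubc9 control 1 and -0.29 without Ubc9 control 2. They were -0.21 and -0.40 without Ubc9-depleted library 1 and 2. Nolc1, Nop56 and Tsr1 did not pass when either Ubc9 control was left out. Of the same 29, 0 were called in H1 TKO cells, at a median of 0.12, where 8.59% of all genes were called higher and 8.43% lower.

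Of 14 genes of RNA polymerase I, which transcribes rRNA, and its factors, 5 fell and 0 rose in Ubc9-depleted cells, at a median of -0.25, where 15% of all genes fell and 21.1% rose. Polr1a, its largest subunit, had 137 and 162 CPM in Ubc9-depleted cells against 278 and 291 CPM in Ubc9 controls, a log2 fold change of -0.92 ± 0.13 (adjusted p = 1.72e-06, edgeR). Cd3eap and Twistnb, also subunits, had -0.78 and -0.70. With no library left out, 2 to 6 of the 14 were called lower under the alternatives, where 2.85% to 16.0% of all genes were. The number changed further when a library was left out, with medians from -0.22 to -0.38. After H1 loss 0 of 14 were called, at a median of 0.07. Of 8 host genes of small nucleolar RNAs whose transcripts belong to the TOP class, Snhg3 (-0.998), Snhg5 (-0.61) and Snhg1 (-0.46) were among 4 that fell in Ubc9-depleted cells, where the list's median was -0.33 and 15% of all genes fell, and Snhg8 (0.94) was the 1 that rose in H1 TKO cells, at a list median of 0.27. Of all genes, 8.59% rose and 8.43% fell in H1 TKO cells. With no library left out, 2 to 5 of the 8 fell under the alternatives for Ubc9 depletion, against the same range of all genes. Fewer fell when either Ubc9 control was left out. The list's median ran from -0.25 to -0.51 over the fits that left out a library. Snhg8 did not pass when either H1 TKO library was left out.

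Translation factors and other mRNAs of the TOP class had a median of -0.04 in Ubc9-depleted cells, which turned to 0.15 with library totals. Of 14, 3 fell and 0 rose, against the same 15% and 21.1% of all genes: Hnrnpa1, a splicing regulator, Npm1, a nucleolar histone chaperone, and Eef1d, an elongation factor subunit, had log2 fold changes of -0.70, -0.40 and -0.36. The calls of this list changed with the library left out. Medians were then -0.09 without Ubc9 control 1 and -0.12 without Ubc9 control 2. They were 0.03 and -0.24 without Ubc9-depleted library 1 and 2. The same 14 had, in H1 TKO cells, a median of 0.34, with 10 apart and higher, against 31.4% of all genes. None was called, where 8.59% of all genes were called higher and 8.43% lower. Mtor and Larp1, the kinase and the RNA-binding protein named above, passed in neither comparison, with log2 fold changes of -0.13 and -0.12 in Ubc9-depleted cells and -0.02 and 0.04 in H1 TKO cells. Myc, a transcriptional activator of ribosome genes, had 6.32 and 3.05 CPM in Ubc9-depleted cells, against 2.43 and 2.40 CPM in Ubc9 controls, and rose by a log2 fold change of 0.96 ± 0.29 (adjusted p = 0.011, edgeR); Ubc9-depleted library 1 was well above library 2, and the call was lost when it or either Ubc9 control was left out.

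Proteins of the mitochondrial ribosome, encoded by other genes, had a median of -0.11 in Ubc9-depleted cells, which turned to 0.08 with library totals. Of 74 tested 9 fell and 0 rose, a smaller share in each direction than the 15% and 21.1% of all genes. Mrpl14, Mrpl18 and Mrps2 had log2 fold changes of -0.55, -0.55 and -0.45. With all 8 libraries in 1 fit 0 fell, where 2.85% of all genes did. The number that fell also changed with the library left out. Medians were then -0.10 without Ubc9 control 1 and -0.18 without Ubc9 control 2. They were -0.08 and -0.25 without Ubc9-depleted library 1 and 2. In H1 TKO cells the median was 0.19, below the 0.48 of the cytosolic family, with 1 of 74 called higher and 4 lower, where 8.59% and 8.43% of all genes were. Mrpl53 had 34.6 and 38.2 CPM in H1 TKO cells against 81.9 and 125 CPM in H1 controls (-1.50 ± 0.25, adjusted p = 0.0087, edgeR). Mrpl19 (-1.37) and Mrps25 (-1.28) were the other named genes that fell. These calls changed with the library left out as well. The median over the 74 was 0.21 and 0.14 without H1 TKO library 1 and 2. It was 0.03 without H1 control 1 and 0.39 without H1 control 2.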

How the data were processed

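The values are whole-number counts per gene in 2 tables deposited by the authors, made with cutadapt, STAR, HTSeq and DESeq2 on mm10, per the submitters' processing notes. The notes do not say what each tool did, its version, the annotation and the strand setting, and none of these is given in the sources used here. Libraries were made with ScriptSeq v2 for the Ubc9 cells and Lexogen SENSE mRNA-Seq V2 for the H1 cells, per the labels. The gene family, the lists and the rule for naming genes were chosen with earlier results of these data known.

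Each comparison was fitted on its own 4 libraries over the whole table in edgeR 4.0.16 (R 4.3.3, limma 3.58.1): filterByExpr (minimum count 10, minimum total 15), TMM factors, quasi-likelihood F test, Benjamini-Hochberg adjustment and a threshold of 0.05. Named genes were, per comparison, up to 5 highest and 5 lowest passing family members with groups apart, 2 per group with the largest library ratio, 4 highest and 4 lowest per kilobase, 4 with the smallest interaction adjusted p, fixed genes, and up to 3 passing genes per list. GENCODE M21 (GRCm38) held 23376 of the symbols as current names and 668 as older ones, leaving 377 unmatched. Values per kilobase use 1 transcript per gene, chosen by its rank as principal transcript (APPRIS), then by its support level, and only then as the shortest. The alternatives were DESeq2 1.42.0, RLE factors, library totals, TMM without the family, no filter, all 8 libraries, a replicate block and leaving out each library. The fit was tested on simulated data. Floors of 3 counts cover counting error only. Some genes that the naming rule selects, and the transcript of the depleted enzyme, are not reported here.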

Additional observations from a re-analysis of the deposited data

Results flagged for a closer look

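For 11 genes named outside the family, the effect of Ubc9 depletion and that of H1 loss differed in a fit of all 8 libraries (edgeR, adjusted p under 0.05). Of all genes, 8.08% were called higher and 6.43% lower in this contrast. The 11 had been named because they passed with large fold changes in a comparison of the same libraries. A difference was thus favoured by the choice, and their number is no result about these genes. The difference, as the Ubc9 effect minus the H1 effect on the log2 scale, was -1.83 ± 0.22 for Rpl39l (SE; adjusted p = 0.00037, edgeR), which was higher in both comparisons and further so in H1 TKO cells. It was -1.48 for Cd3eap, -0.96 for Eef1d, -1.44 for Snhg3, -0.85 for Snhg1, -1.06 for Snhg8 and -2.08 for Tfcp2l1. It was 1.11 for Mrpl19, 1.33 for Mrpl53, 1.06 for Mrps25 and 1.73 for Pdgfrb. Tfcp2l1, a naive pluripotency factor, had 868 and 1086 CPM in Ubc9-depleted cells against 1278 and 1402 CPM in Ubc9 controls, and 5416 and 4914 CPM in H1 TKO cells against 1778 and 1611 CPM in H1 controls. Kit and cell line differ between the comparisons along with the treatment, and their part in these differences cannot be told apart.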

How the results depend on the processing

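Main calls of the family were 3 higher and 1 lower for Ubc9 depletion, 1 higher and 0 lower for H1 loss and 0 in either direction for the difference between the effects. With DESeq2 they were 0 and 0, 9 and 0, and 0 and 11. It called 8.91% of all genes higher for H1 loss and 7.08% lower for the difference. With all 8 libraries in 1 fit they were 0 and 0 for Ubc9 depletion, where 6.48% and 2.85% of all genes were. For H1 loss they were 15 and 0, where 13.0% and 12.7% of all genes were. With library totals they were 37 and 0 for Ubc9 depletion, where 24.1% and 6.57% of all genes were, and the Ubc9 median was 0.26 in place of 0.08. For H1 loss they were 2 and 0 with library totals, where 7.66% and 9.56% of all genes were. Without the filter on low counts 14 were called higher for H1 loss, where 8.71% of all genes were, and 3 lower for the difference, where 5.62% were. RLE factors gave 1 lower for the difference, where 7.91% of all genes were, and TMM without the family 3, where 8.69% were. Leaving out a library gave 0 to 21 higher and 0 to 10 lower for Ubc9 depletion, 0 to 68 higher and 0 to 1 lower for H1 loss, and 0 to 53 lower for the difference, and moved the Ubc9 median between -0.11 and 0.13. Single genes changed sign as well, among them Rps19 for Ubc9 depletion (-0.032 to 0.70), and Npm1 (-0.35 to 0.38) and Rpf2 (-0.51 to 0.35) for H1 loss. Without Ubc9-depleted library 2 the median log2 fold change was -0.05 over 40S genes and -0.12 over 60S genes. Other genes of the family thus changed sign there too. The cause was not tested. The H1 median moved with the library left out, as given above, and stayed above 0. Differences in the share of counts then ran from 1.69 to 4.40 percentage points for H1 loss. For Ubc9 depletion they ran from 0.49 to 0.56.

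Replicate numbers are shared between groups. With them as a replicate block, 4 genes were called higher and 2 lower for Ubc9 depletion (19.2% and 16.0% of all genes), 31 higher for H1 loss (11.7% of all genes) and 4 lower for the difference (7.76%). The differences between libraries 1 and 2 of both groups correlated at 0.017 over all genes in the Ubc9 table and 0.056 in the H1 table, and at 0.49 over the 594 H1 genes at the level of the family. The labels do not tie equal numbers to a shared culture or day, and 2 pairs in a comparison cannot show whether the numbers pair the libraries, so that they are taken as names only. With 2 libraries in a group, the spread is estimated from few values.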
